A study of Macaca mulatta with 21 samples.

Results

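HOX genes encode homeodomain transcription factors that give cells their position along the head-to-tail axis and along the limbs. In mammals they lie in the clusters HOXA, HOXB, HOXC and HOXD, and the number in a gene's name is its paralogue group, from 1 at the anterior end of the cluster to 13 at the posterior end. Low numbers are used first and most anteriorly in the embryo, and high numbers later and more posteriorly. In cultured human skin fibroblasts the set of active HOX genes reflects the body site of the biopsy, while in pluripotent stem cells the clusters are largely held silent by Polycomb proteins until differentiation begins.

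The members described here were all genes of the rhesus macaque expression array whose symbol on the platform is HOXA, HOXB, HOXC or HOXD followed by a number. There were 26 such genes among 14133 genes with a symbol of their own, read by 44 of 52865 probe sets. They comprised 9 genes of cluster A (HOXA2, HOXA3, HOXA5, HOXA6, HOXA7, HOXA9, HOXA10, HOXA11 and HOXA13), 7 of cluster B (HOXB1, HOXB3, HOXB5, HOXB6, HOXB7, HOXB8 and HOXB13), 4 of cluster C (HOXC6, HOXC10, HOXC12 and HOXC13) and 6 of cluster D (HOXD1, HOXD3, HOXD4, HOXD9, HOXD10 and HOXD13). Clusters A, B, C and D have 11, 10, 9 and 9 named genes in the RefSeq annotation of the rhesus assembly T2T-MMU8v2.0, so cluster C is the most thinly covered. A single probe set read 16 of the 26 genes; for the others, values below come from the probe set that was brightest on average unless another is named.

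Messenger RNA was measured in 7 rhesus macaque lines with 3 arrays each, called A, B and C, 21 arrays in all. The cloned lines CRES-1, which is male, and CRES-3, which is female, were derived as embryonic stem cells after somatic cell nuclear transfer. The induced pluripotent lines were made from skin fibroblasts with retroviruses carrying OCT4, SOX2, KLF4 and cMYC: RiPS1 from a male fetus, RiPS2 from a 10-year-old female and RiPS3 from an 8-year-old female. ORMES23 holds male embryonic stem cells of in vitro fertilization origin, and the Fibroblasts are skin cells of an adult 8-year-old female. Mouse embryonic fibroblasts were the feeder layer for every line, skin fibroblasts included; undifferentiated colonies were picked by hand, while the fibroblasts were trypsinized. According to the design text, both kinds of reprogrammed line go back to the same skin cells. The labels, however, give the induced lines donors of different age or sex, and name no donor for CRES-1 or CRES-3. By these labels the Fibroblasts are not the parent cells of the male CRES-1 and RiPS1 or of RiPS2. The body site of the biopsies is not given in the sources used here. Each line is 1 derivation, so every test compares these lines, and its p-value measures the spread between arrays of a line.

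Cell identity fitted the labels. The 7 pluripotency genes on the array, among them POU5F1, summed to between 15920 and 22790 linear intensity units on the arrays of the pluripotent lines and to between 113 and 154 on the fibroblast arrays, where all 7 averaged under log2 5. One of them, ZFP42, was also dim in several pluripotent lines (4.39 in CRES-1, 4.10 in RiPS1, 4.95 in RiPS2 and 4.93 in RiPS3, against 4.07 in the fibroblasts). The 12 skin fibroblast genes summed to between 2769 and 9138 in the pluripotent lines and to between 48810 and 50370 in the fibroblasts. PRRX1, a mesenchymal transcription factor, averaged between 3.56 and 3.79 in the pluripotent lines and 8.69 in the fibroblasts, while collagen genes were also read in the pluripotent lines (COL1A1 averaged 9.41 to 10.19 there, and 12.84 in the fibroblasts). DCN, another gene of the list, did not separate them, at 6.30 to 6.82 in the pluripotent lines and 6.44 in the fibroblasts.

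Levels under log2 5 lie near background on these arrays. By that measure 7 HOX genes were under 5 on average in all 7 lines: HOXA2, HOXA3, HOXA13, HOXB1, HOXC10, HOXC12 and HOXC13. Their line means lay between 2.71 (HOXA13 in RiPS1) and 4.95 (HOXA3 in CRES-1). HOXA6, HOXA7, HOXA9 and HOXB5 averaged under 5 in every pluripotent line and at 5 or more in the fibroblasts alone. At 5 or more in all 7 lines were 9 genes, HOXA10, HOXB3, HOXB7, HOXB8, HOXB13, HOXC6, HOXD1, HOXD9 and HOXD10. The number of HOX genes averaging 5 or more was 15 in CRES-1, 9 in CRES-3, 10 in RiPS1, 15 in RiPS2, 12 in RiPS3 and 11 in ORMES23, against 18 in the fibroblasts, while the share of all genes at that level was nearly flat, between 74% (CRES-1) and 72.5% (Fibroblasts). A high reading in every line does not by itself show expression, since probe sets differ in their own background, and levels are therefore compared between lines and not between genes.

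The mean over the 26 genes, taken per array, lay between 4.61 and 5.08 on the 18 pluripotent arrays and between 6.001 and 6.08 on the 3 fibroblast arrays. No pluripotent array reached the fibroblast range, and the mean over all genes differed little between arrays (6.80 to 6.90).

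The HOX genes lower than in fibroblasts in every pluripotent line were all of paralogue groups 4 to 11. HOXA5, HOXA7, HOXA9, HOXA10, HOXA11, HOXB6, HOXB7, HOXC6, HOXD4, HOXD9 and HOXD10 fell in all 6 pluripotent lines, as did 10.5% of all tested genes. HOXA7 and HOXA9 are counted here although they entered the fit described below only through the fibroblast arrays, where they are high. With no filter on dim genes the same 11 genes fell in all 6 lines. These 11 genes were 5 of the 6 tested (9 on the array) in cluster A, 2 of 6 (7) in cluster B, 1 of 1 (4) in cluster C and 3 of 6 (6) in cluster D. By paralogue number they were 0 of the 4 tested (6 on the array) in groups 1 to 3, 6 of 8 (9) in groups 4 to 8, 5 of 5 (6) in groups 9 to 11 and 0 of 2 (5) in groups 12 and 13. These tallies depend on the probe set rule. With the mean of all probe sets of a gene, 10 genes fell in all 6 lines, without HOXA11 and HOXD10 and with HOXB5. Arrays centred on their median or quantile normalized again gave 12, with HOXB5 added. Every probe set on its own gave 13, with HOXB5 and HOXB8 added. Of the members in groups 1 to 3 and 12 and 13, 3 each were under 5 in all lines, so for those the array read no level in either cell type. The arrays measure bulk RNA, so fewer expressing cells and less RNA per cell cannot be told apart.

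Rises and falls are used here only of called genes, those with an adjusted p under 0.05 and a log2 difference of at least 1, in a fit over all 11143 genes at log2 5 or more on at least 3 arrays. Of the 26 HOX genes, 19 were in that fit; HOXA2, HOXA6, HOXA13, HOXB1, HOXC10, HOXC12 and HOXC13 were not. HOXA7 and HOXB5 reached 5 on the fibroblast arrays alone and HOXA9 on those and 1 pluripotent array, so these genes entered the fit only through the group where they are high. HOXD13 reached 5 on 7 pluripotent arrays and no fibroblast array, and entered only through the lines where it is high. The number of HOX genes that fell was 11 in CRES-1 (14.2% of all tested genes fell there), 13 in CRES-3 (14.2%), 12 in RiPS1 (13.5%), 12 in RiPS2 (14.6%), 13 in RiPS3 (14.2%) and 12 in ORMES23 (14.1%). Rises numbered 1 in CRES-1 (16.4% of all tested genes rose), 0 in CRES-3 (19.1%), 1 in RiPS1 (19.3%), 1 in RiPS2 (17.2%), 0 in RiPS3 (18.3%) and 0 in ORMES23 (18.5%). All 6 comparisons share the same 3 fibroblast arrays and are therefore not independent of each other. Over all 26 genes, tested or not, the median log2 difference from fibroblasts was -0.37 in CRES-1, -0.97 in CRES-3, -0.46 in RiPS1, -0.51 in RiPS2, -0.89 in RiPS3 and -0.76 in ORMES23. Over all 14133 genes it lay between -0.06 and 0.00.

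**Figure D1:**
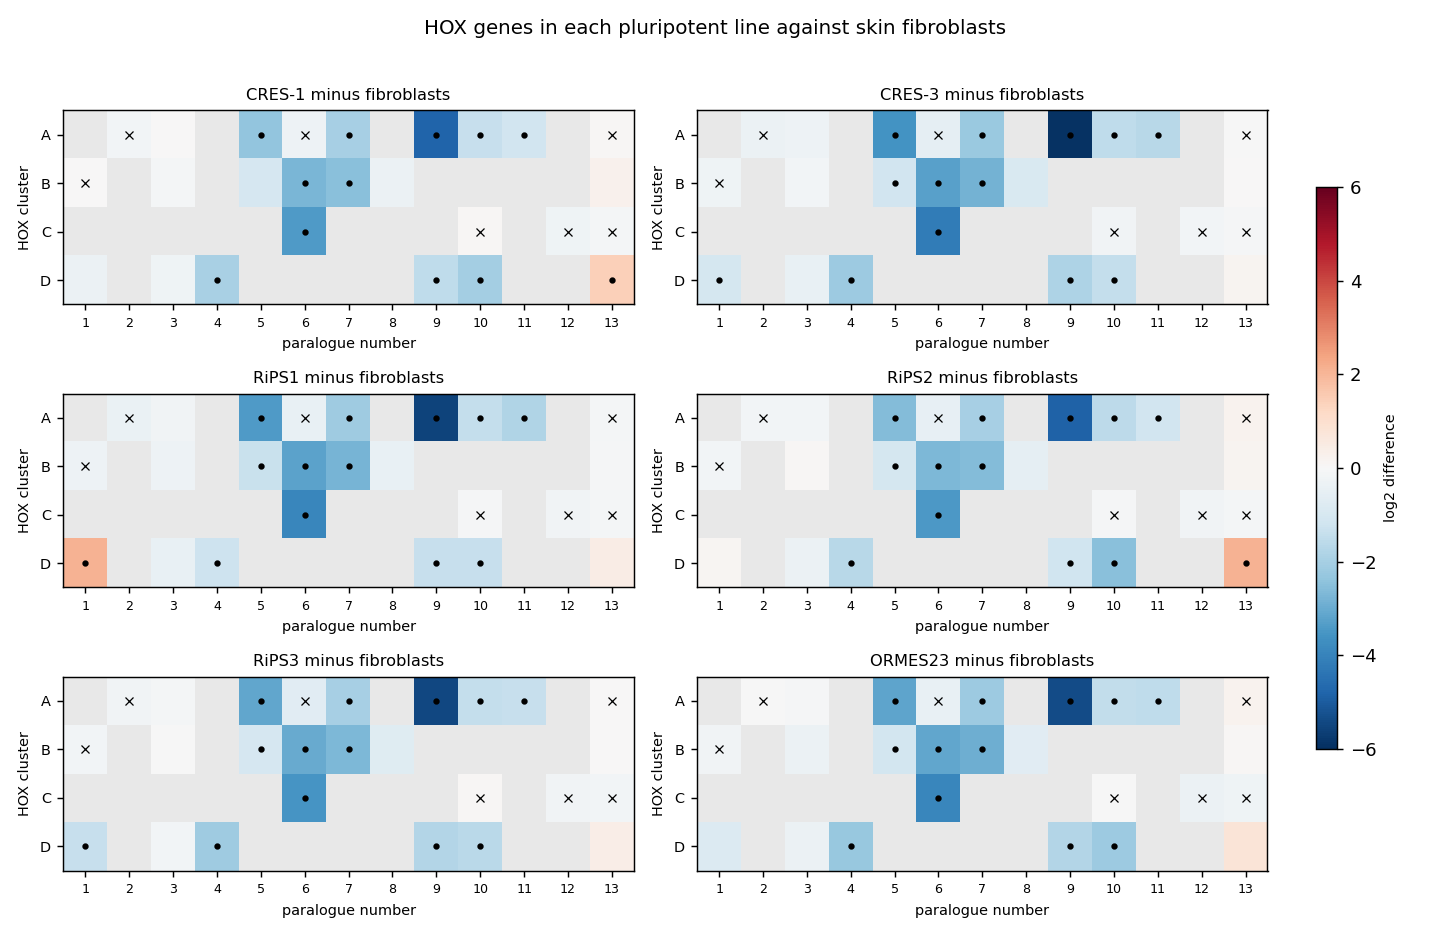
Log2 difference from the fibroblasts of each HOX gene on the array, placed by cluster (rows) and paralogue number (columns), with a panel for each pluripotent line; blue is lower and red higher in the pluripotent line, light grey has no gene on the array, a black dot marks a called gene and a cross a gene outside the fit. The dots lie between paralogues 4 and 11 in every panel, except for HOXD1 in CRES-3, RiPS1 and RiPS3 and HOXD13 in CRES-1 and RiPS2.

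In the central part of cluster A, HOXA5, which in mice patterns the neck and upper chest and the airways, read 4.22 to 5.96 on the 18 pluripotent arrays (median 4.81), and 8.12, 7.81 and 7.85 on the fibroblast arrays. No pluripotent array came within log2 1.5 of the fibroblasts. The difference from fibroblasts was -3.58 in CRES-3 (SE 0.19, adjusted p = 2.87e-11), which is at least 7.61-fold lower counted from log2 5, and smallest in CRES-1, at -2.37. HOXA7, which acts in the thoracic region, was below 5 on all 18 pluripotent arrays (3.81 to 4.50), and read 6.004, 6.17 and 6.10 in the fibroblasts. Its difference was -2.23 in CRES-3 and -1.98 in RiPS2, at least 2.13-fold lower in each line. HOXA6, between them in number, was not in the fit; its line means were 4.35 to 4.69 in the pluripotent lines and 5.01 in the fibroblasts.

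HOXA9, best known for its role in blood progenitors and leukaemia, had the largest difference of all members in every line. It read 3.10 to 5.08 on the pluripotent arrays (median 3.72), and 8.90, 9.22 and 9.31 in the fibroblasts. The difference was -5.93 in CRES-3 (SE 0.27, adjusted p = 3.05e-12), -5.54 in RiPS1, -5.47 in RiPS3, -4.84 in RiPS2, -4.81 in CRES-1 and -5.36 in ORMES23. Since the pluripotent level is near background, the ratio is a bound: counted from log2 5, HOXA9 was at least 17.7-fold lower in each of the 6 lines.

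Further along cluster A, HOXA10, needed in mice for the lumbar spine and the uterus, read 5.49 to 5.97 on the pluripotent arrays and 6.83, 7.42 and 7.26 in the fibroblasts. All 18 pluripotent arrays were below the 3 fibroblast arrays. Its difference was close to equal among the lines, from -1.56 in RiPS2 to -1.39 in CRES-1. The other HOXA10 probe set (MmugDNA.5506.1.S1_at) gave a wider gap, 2.84 to 3.79 on the pluripotent arrays and 7.14, 6.19 and 7.03 in the fibroblasts, with -3.86 in CRES-3. HOXA11, a limb and uterus gene, read 4.48 to 5.61 on the pluripotent arrays and 6.15, 6.55 and 6.71 in the fibroblasts, with differences from -1.79 (RiPS1, at least 2.77-fold lower) to -1.14 (CRES-1); without CRES-1 B the CRES-1 call was lost. A dimmer HOXA11 probe set, outside the fit, differed by -0.75 to -0.38, and with the mean of both HOXA11 was not called in CRES-1, RiPS2 and RiPS3.

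In cluster B, HOXB6 and HOXB7 carried the difference; both act in the thoracic region. HOXB6 read 4.77 to 5.62 on the pluripotent arrays and 8.04, 8.26 and 8.06 in the fibroblasts. Its difference of -3.27 in CRES-3 (SE 0.14) had an adjusted p = 1.39e-12, the smallest of the members in that comparison, and is at least 8.69-fold lower counted from log2 5. HOXB7 read 4.81 to 5.56 on the pluripotent arrays and 8.21, 7.85 and 7.86 in the fibroblasts, and was 5.76-fold (CRES-1) to 7.56-fold (ORMES23) lower. The groups were separated by more than log2 2 for both genes.

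HOXB5 and HOXB8 lay near the limit of a 2-fold change. HOXB5 averaged 4.34 to 4.68 in the pluripotent lines and 5.67 in the fibroblasts, and fell in 5 lines; in CRES-1 its difference of -0.99 (adjusted p = 1.06e-05) was short of the fold limit. Without Fibroblasts A the HOXB5 call was lost in CRES-3, RiPS2, RiPS3 and ORMES23. A second HOXB5 probe set fell in all 6 lines, with differences from -2.16 (CRES-3) to -1.96 (RiPS3). HOXB8 averaged 5.28 to 5.80 in the pluripotent lines and 6.17 in the fibroblasts, with differences from -0.89 (CRES-3, adjusted p = 0.000216) to -0.37 (CRES-1, adjusted p = 0.0736), and was not called in any line. Its probe set MmugDNA.26962.1.S1_at, which averaged 4.04 to 4.87 in the pluripotent lines and 5.99 in the fibroblasts, fell in all 6, from -1.95 (CRES-3) to -1.12 (CRES-1), so the call on HOXB8 depends on the probe set. HOXB3, at 5.45 to 5.85 in the pluripotent lines and 5.80 in the fibroblasts, and HOXB13, at 5.84 to 6.13 and 5.89, were not called anywhere.

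The only member of cluster C in the fit was HOXC6, a thoracic gene, and it fell in all 6 lines. It read 5.33 to 6.73 on the pluripotent arrays (median 5.94) and 9.52, 9.93 and 9.57 in the fibroblasts. The difference was -4.20 in CRES-3 (SE 0.20, adjusted p = 7.60e-12), an 18.4-fold lower signal, and -3.38 in CRES-1, a 10.4-fold lower one. Of its 4 probe sets 3 fell in all 6 lines; the exception, MmugDNA.29424.1.S1_at, averaged 4.62 to 4.92 in the pluripotent lines and 4.56 in the fibroblasts. HOXB6 likewise had a dim probe set without a difference (3.70 to 4.05 in the pluripotent lines, 3.92 in the fibroblasts). HOXC10, HOXC12 and HOXC13, the last a hair gene, stayed under 4.5 on every one of the 21 arrays.

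**Figure D2:**
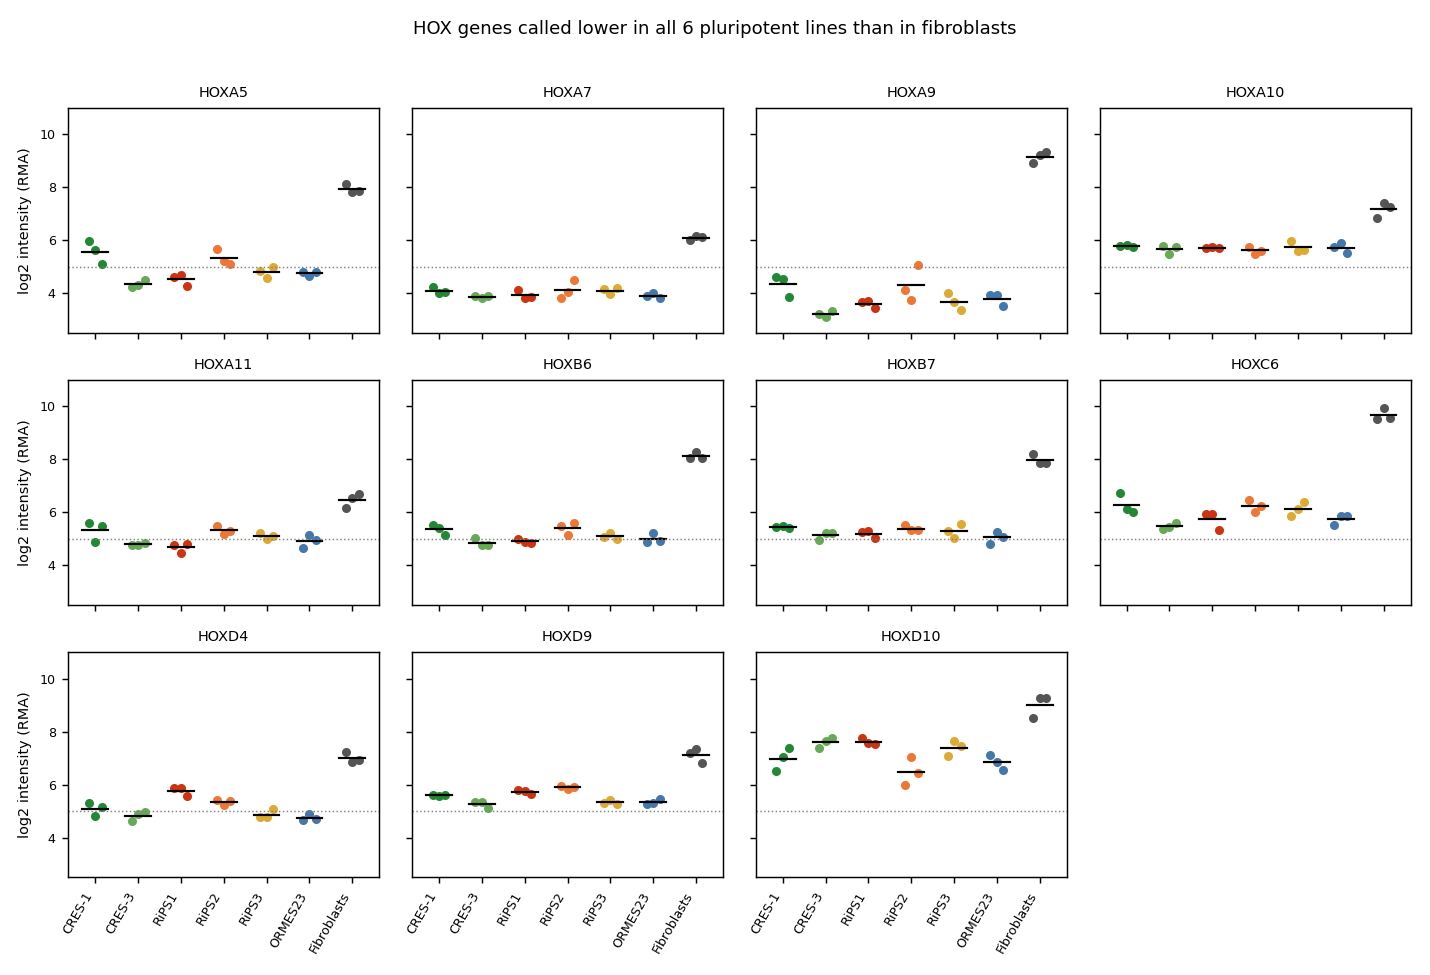
Log2 intensity on every array (dots, in the order A, B, C) with the line mean (bar) for the 11 HOX genes that fell in all 6 pluripotent lines; the dotted line is log2 5. The 3 fibroblast arrays at the right are above all 18 pluripotent arrays in each panel, with the widest gap for HOXA9 and a narrow one for HOXA10, HOXA11, HOXD9 and HOXD10.

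In cluster D the anterior-to-middle gene HOXD4, which in mice shapes the neck vertebrae, read 4.63 to 5.87 on the pluripotent arrays and 7.24, 6.86 and 6.95 in the fibroblasts. Its difference ran from -2.26 in ORMES23 (at least 4.04-fold lower) to -1.24 in RiPS1. HOXD9, a gene of the lower trunk and limbs, read 5.12 to 5.95 on the pluripotent arrays and 7.20, 7.34 and 6.82 in the fibroblasts, with differences from -1.85 in CRES-3 to -1.22 in RiPS2. Neither gene had a pluripotent array inside the fibroblast range. HOXD3, next to HOXD4 in the cluster, averaged 4.90 to 5.21 in the pluripotent lines and 5.36 in the fibroblasts and was not called. Its other probe sets, outside the fit, averaged 3.88 to 4.35 and 5.32, and 3.33 to 3.77 and 4.52. On both of these dimmer probe sets every fibroblast array was above every pluripotent array, so the absence of a HOXD3 call depends on the probe set and the filter.

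The ends of cluster D showed differences in both directions. HOXD1 averaged 5.45 (RiPS3) to 8.92 (RiPS1) in the pluripotent lines and 6.82 in the fibroblasts. It rose in RiPS1 (difference 2.10, SE 0.38, adjusted p = 9.48e-05) and fell in CRES-3 (-1.05, adjusted p = 0.0206) and RiPS3 (-1.37, adjusted p = 0.00416); the CRES-3 call was lost without CRES-3 A, CRES-3 B or Fibroblasts B. HOXD13, which in mammals shapes the digits, averaged 4.09 (CRES-3) to 5.99 (RiPS2) in the pluripotent lines and 3.91 in the fibroblasts, and rose in RiPS2 (2.08, SE 0.24, adjusted p = 6.09e-07) and CRES-1 (1.43, adjusted p = 5.03e-05). The fibroblast level is near background and HOXD13 was tested only because of its pluripotent arrays, so the measured part is the bound counted from log2 5, at least 1.98-fold in RiPS2 and at least 1.26-fold in CRES-1.

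Among the pluripotent lines themselves fewer HOX genes were called than against the fibroblasts. An F test over the 6 lines, with a span of at least log2 1 between the highest and lowest line mean, called 6 HOX genes, HOXA5, HOXA9, HOXD1, HOXD4, HOXD10 and HOXD13 (7.52% of all tested genes were called). HOXA9 is among them with every pluripotent line mean under 5 and a place in the fit owed to the fibroblast arrays, so its span is one between near-background values. HOXD13 reached 5 only on arrays of CRES-1, RiPS2 and ORMES23, so it was tested only through the arrays where it is high. The span was largest for HOXD1, at 3.47, and 1.90 for HOXD13, 1.21 for HOXA5, 1.14 for HOXD10, 1.11 for HOXA9 and 1.01 for HOXD4. The HOXA9 call was lost without any of CRES-1 A, CRES-1 B, CRES-3 A, CRES-3 B, CRES-3 C, RiPS1 A, RiPS1 B and RiPS3 B, with spans from 1.05 to 1.17. The HOXD10 call was lost without RiPS2 A (0.89) or RiPS2 C (1.12), and the HOXD4 call without the arrays named below for that gene. Over all 26 HOX genes the median span was 0.39, against 0.38 over all genes. CRES-1 had the highest mean of the 6 lines for 13 of the 26 genes and the lowest for none, while CRES-3 had the lowest for 11 and the highest for 2. Over all genes CRES-1 was highest for 19.1% and CRES-3 lowest for 15.7%. Of the 11 HOX genes under 5 in all 6 lines, CRES-1 was highest for 6 and CRES-3 lowest for 4, and among all genes that dim the shares were 32.7% and 20.3%.

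**Figure D3:**
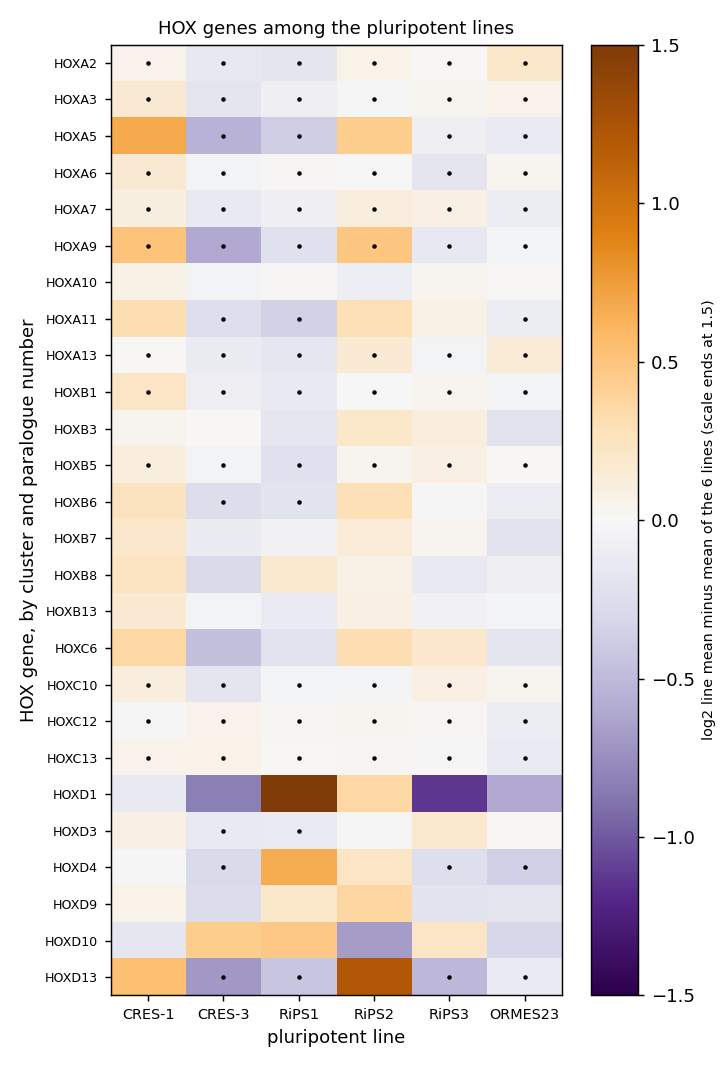
Line mean minus the mean of the 6 pluripotent lines (log2, orange higher, purple lower, colours ending at 1.5) for each of the 26 HOX genes, with a dot where the line mean is under log2 5. Most rows are pale; HOXD1 in RiPS1 and HOXD13 in RiPS2 are the strongest, HOXA5 and HOXA9 are orange in CRES-1 and RiPS2 and purple in CRES-3, and the pale rows full of dots are genes near background.

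HOXD1 was the member that varied most. It read 8.66, 9.22 and 8.87 in RiPS1, above each of the other 18 arrays. Elsewhere it read 6.29, 5.95 and 7.11 in CRES-1, 5.44, 5.69 and 6.16 in CRES-3, 6.85, 6.36 and 7.61 in RiPS2, 6.28, 5.30 and 4.77 in RiPS3, 5.86, 6.21 and 5.88 in ORMES23, and 6.36, 7.23 and 6.85 in the fibroblasts. RiPS1 therefore stood apart, and the 3 RiPS3 arrays were spread over 1.5 log2 units. HOXD1 was 7.64-fold higher in RiPS1 than in ORMES23 (log2 difference 2.93, SE 0.38, adjusted p = 0.000116). Its difference between RiPS1 and the mean of the other induced lines was 2.72 (SE 0.33, adjusted p = 3.75e-05), and between CRES-1 and RiPS1 it was -2.47 (adjusted p = 0.000557). Between RiPS2 and RiPS3 it was 1.49 (SE 0.38, adjusted p = 0.0369), a call lost without RiPS2 A (1.54), RiPS2 C (1.16), RiPS3 B (1.42) or RiPS3 C (1.15).

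HOXD4, a few genes along the same cluster, was also highest in RiPS1 among the pluripotent lines, at 5.87, 5.87 and 5.58. It read 5.30, 4.82 and 5.16 in CRES-1, 4.63, 4.90 and 4.95 in CRES-3, 5.42, 5.22 and 5.38 in RiPS2, 4.77, 4.77 and 5.08 in RiPS3, and 4.67, 4.90 and 4.71 in ORMES23. The RiPS1 arrays lay above all others of the pluripotent lines. The difference from ORMES23 was 1.01 (SE 0.15, adjusted p = 0.000326), just past the fold limit and at least 1.71-fold counted from log2 5; it was under 1 without RiPS1 A or B (0.96 each), without ORMES23 A (0.97) and without ORMES23 C (0.99), and with the arrays quantile normalized again (0.98). HOXD3, which lies between HOXD1 and HOXD4 in the RefSeq order, averaged 4.91 in RiPS1 and 5.03 in ORMES23, and its second probe set averaged 4.35 and 3.88. Together HOXD1 and HOXD4 were the HOX calls of RiPS1 against ORMES23, where 2.4% of all tested genes were called.

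Skin fibroblast genes and retinoic acid genes also differed between RiPS1 and ORMES23. The 12 skin fibroblast genes summed to 7156 to 9138 on the RiPS1 arrays and to 3157 to 4823 on the ORMES23 arrays, and COL1A2 (1.86) and TIMP1 (1.08) were called higher. Of the 11 HOX genes that fell in all lines against fibroblasts, 6 were estimated higher in RiPS1 than in ORMES23 and 5 lower. They ran from HOXD4 (1.01), HOXD10 (0.78, adjusted p = 0.0866) and HOXD9 (0.39, adjusted p = 0.0446), all of cluster D, to HOXA9 (-0.18), HOXA5 (-0.24) and HOXA11 (-0.25, adjusted p = 0.485). The part of fibroblast-like cells in these values was not tested. Of 12 tested genes of the retinoic acid pathway, a known inducer of anterior HOX genes, CRABP1, a retinoic acid binding protein, rose in RiPS1 (1.66, SE 0.23, adjusted p = 0.000277) and CYP26A1, which degrades retinoic acid, fell (-1.60, SE 0.27, adjusted p = 0.00121). Their part in the HOXD1 difference was not tested.

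HOXD13 was highest in RiPS2 and next in CRES-1. It read 6.14, 5.45 and 6.37 in RiPS2, 5.31, 5.50 and 5.20 in CRES-1, 4.13, 3.91 and 4.24 in CRES-3, 4.52, 4.27 and 4.31 in RiPS1, 4.46, 4.32 and 4.07 in RiPS3, 5.16, 4.34 and 4.50 in ORMES23, and 4.26, 3.49 and 3.97 in the fibroblasts. RiPS2 A and C were above all other arrays, whereas RiPS2 B lay within the CRES-1 range. HOXD13 was tested only through the arrays where it is high. It was the HOX call of RiPS2 against ORMES23 (1.32, SE 0.24, adjusted p = 0.0094, at least 1.98-fold counted from log2 5), where 0.458% of all tested genes were called. That call was lost without RiPS2 A (1.25), RiPS2 C (1.13), ORMES23 B (1.16) or ORMES23 C (1.24), and when only the arrays of these lines were fitted. Against RiPS3 the difference was 1.70 (adjusted p = 0.000744); with the call on HOXD1 above, 2 HOX genes were called there, and 1.18% of all tested genes. The 2 other HOXD13 probe sets stayed under log2 5 on all 21 arrays and varied little, but with the same lines on top among the pluripotent ones. They averaged 4.57 and 4.44 in RiPS2 and 4.41 and 4.32 in CRES-1, against 4.22 to 4.24 and 4.00 to 4.11 in the other pluripotent lines and 4.40 and 4.33 in the fibroblasts. Among all genes under 5 in every pluripotent line, CRES-1 was highest for 32.7% and RiPS2 for 25.2%, so these lines often lead among dim genes. HOXD13 reached log2 6 on only 2 arrays, and the mean of its 3 probe sets reached 5 on only 2, so under either rule it left the fit and was not tested.

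The probe sets of HOXD10, which in mice acts in the hindlimb and the lumbar spinal cord, disagreed with each other. By the brightest one HOXD10 fell in all 6 lines, and RiPS2 was the lowest, at 5.98, 7.04 and 6.43. The other lines read 6.53, 7.05 and 7.38 in CRES-1, 7.38, 7.65 and 7.77 in CRES-3, 7.78, 7.55 and 7.55 in RiPS1, 7.07, 7.65 and 7.45 in RiPS3, and 7.13, 6.85 and 6.57 in ORMES23, against 8.53, 9.25 and 9.26 in the fibroblasts. With the mean of the 3 probe sets in place of the brightest, HOXD10 was not called lower in any line; that mean was 4.85 to 5.82 in the pluripotent lines, highest in RiPS2, and 5.38 in the fibroblasts. By probe set MmugDNA.16823.1.S1_at RiPS2 was instead the highest of all 7 lines, at 7.33, 5.61 and 7.77. The line means were 4.15 to 4.71 in the other pluripotent lines and 4.16 in the fibroblasts. In a fit of every probe set on its own, this difference was 2.38 against ORMES23 (SE 0.37, adjusted p = 0.00242), 2.55 against RiPS3 (adjusted p = 0.000956) and 2.74 against the fibroblasts (adjusted p = 3.91e-06). The dimmest probe set, outside the fit, also averaged highest in RiPS2, at 4.38, 3.37 and 4.51, with line means of 2.81 to 3.33 in the other pluripotent lines and 2.97 in the fibroblasts.

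**Figure D4:**
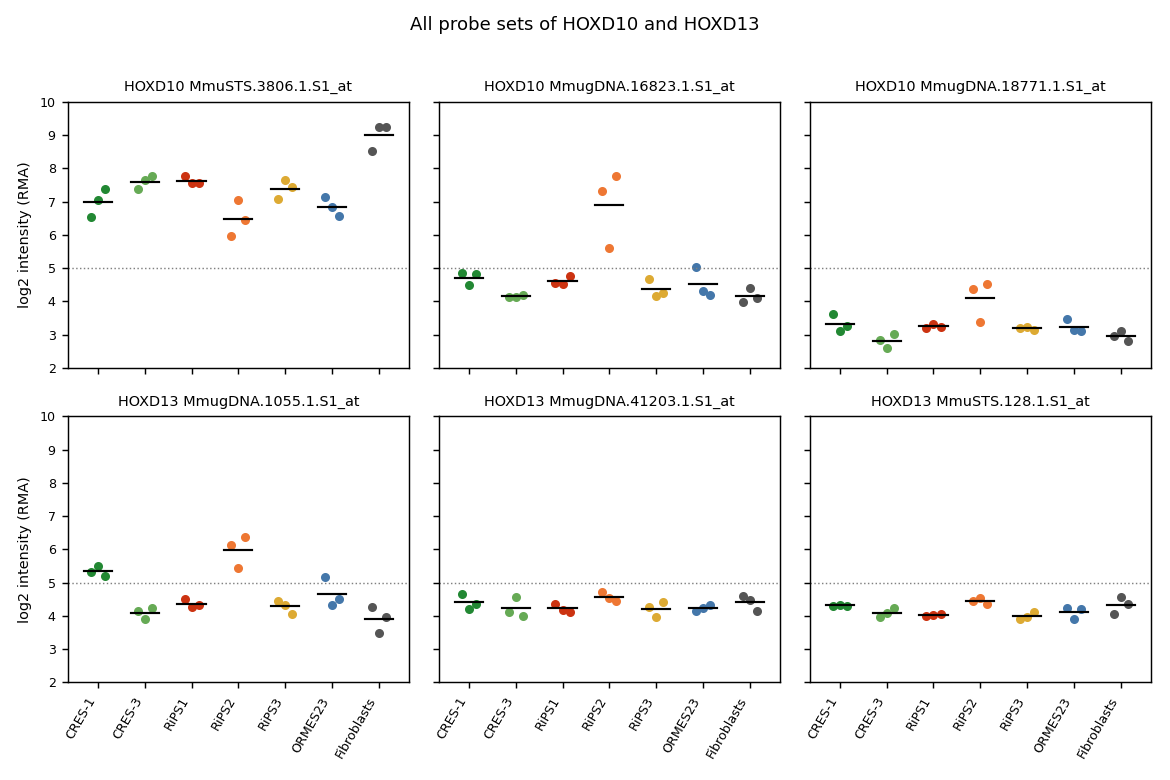
Log2 intensity on every array (dots in the order A, B, C, bar at the line mean) for the 3 probe sets of HOXD10 (upper row) and the 3 of HOXD13 (lower row); the dotted line is log2 5. RiPS2 is lowest among the lines on the bright HOXD10 probe set and highest on the other HOXD10 probe sets and on HOXD13 MmugDNA.1055.1.S1_at, with array B below A and C on these last; the remaining HOXD13 probe sets lie under 5 and vary little, with RiPS2 and CRES-1 slightly above the other pluripotent lines.

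On the 3 probe sets where RiPS2 was high, arrays A and C were high and array B was lower. PAX6, a gene of early neural ectoderm, read 7.42, 3.69 and 7.74 on the same arrays, and the summed level of the 2 neural ectoderm genes on the array ran from 28.6 to 230 in RiPS2. In ORMES23 PAX6 read 3.18, 6.65 and 6.94, and HOXD13 was highest on array A, where PAX6 was lowest. In CRES-1 PAX6 read 6.03, 5.99 and 5.58, and in CRES-3, RiPS1 and RiPS3 it averaged under 4. The other measured neural ectoderm gene, NEUROG2, averaged under 5 in every line. Genes of other lists were also lowest on array B of RiPS2, such as CDX4 (5.54, 4.71 and 5.45), TBXT (7.38, 6.22 and 7.21) and TWIST1 (8.17, 6.71 and 7.70). Others, such as MEIS2 (6.68, 6.76 and 8.57), were not. The part of neural ectoderm cells or of other cell types in the RiPS2 values was not tested.

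HOXA5 and HOXA9 were high in CRES-1 and RiPS2 and low in CRES-3, and were not the only members with that order. From the mean of the 6 lines, HOXC6 deviated by 0.352, 0.305 and -0.462 and HOXB6 by 0.256, 0.302 and -0.253. HOXD10 ran the other way (-0.170, -0.674 and 0.443). Among all genes under 5 in all 6 lines, CRES-1 was highest for 32.7%, RiPS2 highest for 25.2% and CRES-3 lowest for 20.3%. HOXA5 read 5.96, 5.63 and 5.09 in CRES-1, 4.22, 4.31 and 4.50 in CRES-3, 4.61, 4.67 and 4.28 in RiPS1, 5.66, 5.21 and 5.11 in RiPS2, 4.85, 4.57 and 5.00 in RiPS3, and 4.81, 4.65 and 4.81 in ORMES23. All CRES-1 and RiPS2 arrays were above all arrays of the other pluripotent lines. HOXA9 read 4.63, 4.52 and 3.86 in CRES-1, 3.22, 3.10 and 3.34 in CRES-3, 3.65, 3.71 and 3.45 in RiPS1, 4.11, 3.73 and 5.08 in RiPS2, 4.00, 3.65 and 3.37 in RiPS3, and 3.92, 3.92 and 3.52 in ORMES23. All but 1 of these HOXA9 values are under log2 5, so its differences among pluripotent lines carry no measured ratio.

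**Figure D5:**
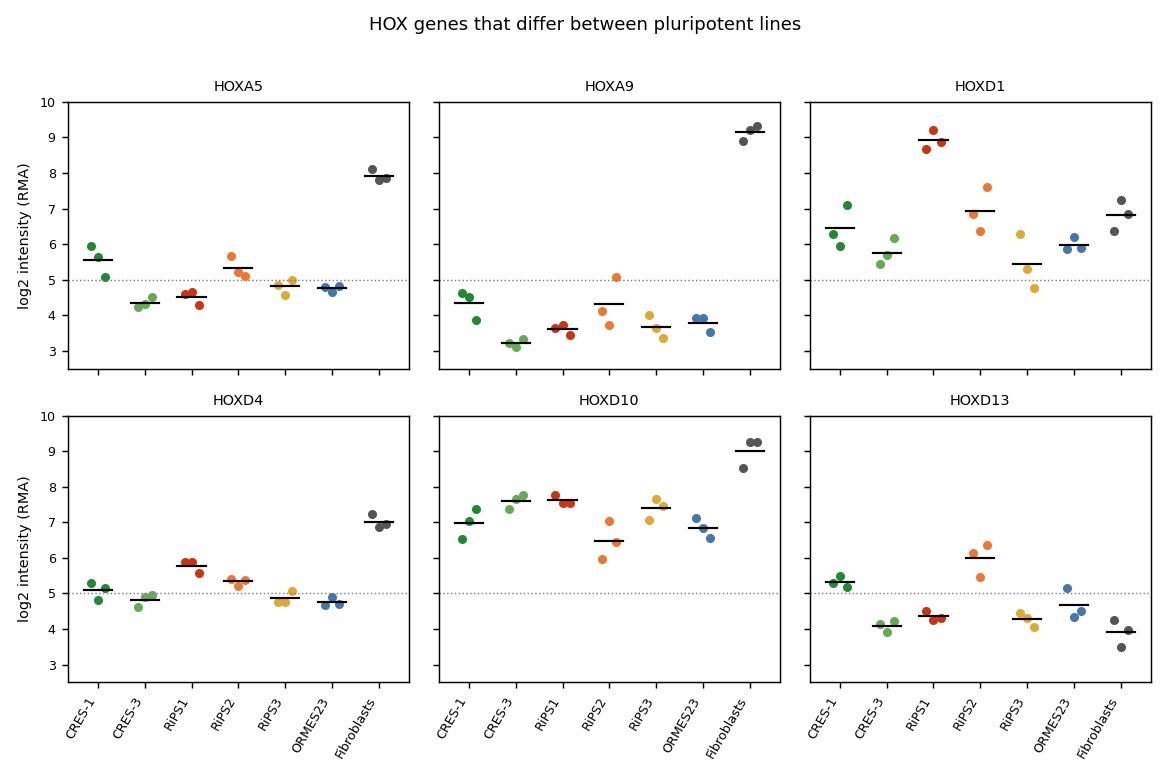
Log2 intensity on every array (dots in the order A, B, C, bar at the line mean) for the 6 HOX genes called in the F test over the pluripotent lines; the dotted line is log2 5. HOXD1 and HOXD4 are highest among the pluripotent lines in RiPS1 and HOXD13 in RiPS2, HOXA5 is raised in CRES-1 and RiPS2, and HOXA9 lies under 5 on all but 1 pluripotent array.

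Between the cloned lines 3 HOX genes were called, all lower in CRES-3 (2.61% of all tested genes were called in either direction). HOXA5 differed by -1.21 (SE 0.19, adjusted p = 0.00146), at least 1.47-fold counted from log2 5. HOXD13 differed by -1.24 (SE 0.24, adjusted p = 0.00498), at least 1.26-fold. All CRES-3 arrays were under 5 for HOXD13, and it was tested only through the arrays where it is high. HOXA9 differed by -1.11 (SE 0.27, adjusted p = 0.0176), but all 6 arrays of these lines are under 5 and it was tested only because of the fibroblasts, so this call is no measured difference in expression. The HOXA9 call was lost without CRES-1 A (-0.97), CRES-1 B (-1.02), CRES-3 A (-1.12) or CRES-3 B (-1.05). Of the 26 HOX genes, 23 were estimated lower in CRES-3 than in CRES-1, with a median of -0.28. Over all genes 48.9% were estimated higher in CRES-3, with a median of -0.01. Among the 2990 genes outside the fit, which are near background, the median was -0.07, so dim genes as a class also read slightly lower in CRES-3. The 12 skin fibroblast genes summed to 2769 to 3762 in CRES-3 and to 5068 to 6809 in CRES-1, with COL1A2 (-1.92) and TWIST1 (-2.11) called lower; their part in the HOX differences was not tested.

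CRES-1 against ORMES23 gave no HOX call, and no call among all tested genes (0%). At an unadjusted p under 0.05, limma gave 8 of the 19 HOX genes and 1270 of 11143 genes. The largest HOX difference was that of HOXA5, 0.80 (95% interval 0.39 to 1.21, adjusted p = 0.135); without CRES-1 C it was called, the 1 HOX call of that setting. The estimates were above 0 for 24 of 26 HOX genes with a median of 0.21, while 53.7% of all genes were above 0 with a median of 0.02. Among the 2990 genes outside the fit, which are near background, the median was 0.08, so dim genes as a class read slightly higher in CRES-1 too.

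CRES-3 and RiPS3 also gave no HOX call against ORMES23. For CRES-3, 0.996% of all tested genes were called. At an unadjusted p under 0.05, limma gave 4 of the 19 HOX genes and 1886 of 11143 genes. HOXD10 had the largest HOX difference, 0.75 (adjusted p = 0.152). For RiPS3, 0.763% of all tested genes were called. Here 1 HOX gene and 1627 of 11143 genes had an unadjusted p under 0.05 in limma, with HOXD10 again the largest HOX difference, at 0.54. The 5 comparisons with ORMES23 share its 3 arrays.

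Cloned and induced lines of the same labelled sex were compared directly. In the female lines, CRES-3 against RiPS3, no HOX gene was called and 0.0359% of all tested genes were. At an unadjusted p under 0.05, limma gave 2 of 19 HOX genes and 881 of 11143 genes. HOXC6 had the largest difference, -0.65 (95% interval -1.085 to -0.22, adjusted p = 0.311). The intervals of the 19 genes together ran from -1.085 to 1.11, so for some genes they reach past a 2-fold difference. In the male lines, CRES-1 against RiPS1, HOXA5 was higher in CRES-1 (1.04, SE 0.19, adjusted p = 0.00293, at least 1.47-fold) and HOXD1 lower (-2.47), with 2.14% of all tested genes called. The HOXA5 call was lost without CRES-1 A (0.84) or RiPS1 C (0.92).

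The difference between these comparisons was tested as an interaction, which called HOXA5, HOXC6 and HOXD1 and 2.89% of all tested genes. The cloned minus induced difference of HOXA5 was -0.47 in the female lines and 1.04 in the male lines, giving -1.504 (SE 0.27, adjusted p = 0.00475). For HOXD1 it was 0.31 and -2.47, giving 2.78 (SE 0.53, adjusted p = 0.00638). For HOXC6 it was -0.65 and 0.55, giving -1.21 (SE 0.29, adjusted p = 0.0227), and this call was lost without CRES-3 A (-1.15), CRES-3 B (-1.20), RiPS3 C (-1.08) or CRES-1 A (-0.98), and with the mean of its 4 probe sets (-0.59). With 1 line per route and sex, sex and line cannot be told apart.

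Among the induced lines HOXD1 was the only HOX gene called between RiPS1 and the mean of RiPS2 and RiPS3, as given above, with 2.51% of all tested genes called. Other HOX genes had an adjusted p under 0.05 in limma but were short of the fold limit. Among them were HOXD4 (0.67, adjusted p = 0.00217), HOXA11 (-0.53, adjusted p = 0.0321) and HOXA5 (-0.55, adjusted p = 0.0408). RiPS1 is from a male fetus and the others from older females, so sex, donor age and line cannot be told apart.

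The partners and inputs of HOX proteins were read from lists of genes. Of the 6 tested TALE homeodomain cofactors, which bind DNA together with HOX proteins, 2 fell and 1 rose in each pluripotent line against the fibroblasts. For this and the next lists the shares of all tested genes are those given above, 13.5% to 14.6% fallen and 16.4% to 19.3% risen by line, so 1 risen of 6 is close to that share. MEIS1 averaged 3.43 to 4.21 in the pluripotent lines and 5.73 in the fibroblasts, and MEIS2 averaged 5.44 (CRES-3) to 7.34 (RiPS2) and 8.64. MEIS1 was under log2 5 on every pluripotent array, so it entered the fit only through the fibroblast arrays, where it is high. PBX3 averaged 10.38 to 10.84 in the pluripotent lines and 8.91 in the fibroblasts. MEIS2 was also the TALE gene that varied between the pluripotent lines in the F test, and was lower in RiPS1 than in the mean of RiPS2 and RiPS3 (-1.28, adjusted p = 0.0212).

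Of 12 tested retinoic acid genes, 3 rose and 4 to 6 fell against fibroblasts in each line, the rises not far above the share of all genes. CYP26A1 averaged 8.995 (RiPS1) to 10.75 (CRES-1) in the pluripotent lines and 4.32 in the fibroblasts, CRABP1 9.11 to 10.82 and 4.23, and ALDH1A3, which makes retinoic acid, 3.58 to 4.41 and 8.74. CYP26A1 and CRABP1 were under log2 5 on every fibroblast array, and ALDH1A3 on every pluripotent array. Each of them therefore entered the fit only through arrays where it is high. Of 11 tested position factors of limb and body wall, 3 or 4 fell and none rose in each line, among them MSX1 (6.16 to 7.52 in the pluripotent lines, 10.41 in the fibroblasts), SHOX2 (4.75 to 4.99 and 6.99) and TBX15 (4.80 to 6.04 and 7.37). Of 4 tested ParaHox and HOX-flanking genes, CDX4, which in mice activates HOX genes, was called higher in CRES-1 (1.05, adjusted p = 0.00998) and RiPS2 (1.14, adjusted p = 0.00592), and no other call was made. CDX4 reached log2 5 on 6 pluripotent arrays and no fibroblast array, so it was tested only through arrays where it is high, and counted from 5 the rises are at least 1.11-fold in CRES-1 and at least 1.17-fold in RiPS2.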

How the data were processed

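The authors deposited RMA values (robust multi-array average, per the submitters' processing notes), a log2 intensity for every probe set; the RMA version is not given in the sources used here, and the scanner files were not used here. Values ran from 2.09 to 14.7, with array medians of 4.98 to 5.14, and no arrays were identical. The number of arrays limits the precision. A gene was read from its brightest probe set with 1 symbol (361 probe sets with several symbols and 27535 with none were left out). Genes at log2 5 or more on at least 3 arrays entered a limma fit (limma 3.58.1, R 4.3.3) with a mean per line over all 21 arrays with 14 residual degrees of freedom, moderated by empirical Bayes. P-values are two-sided, adjusted by Benjamini-Hochberg over 11143 genes in each of 18 comparisons. SE is the standard error of the log2 difference. Where the dimmer line averaged under log2 5, a fold is a bound counted from 5. The fit was tested on simulated data.

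Every HOX gene is reported. Values on every array are given for those called between pluripotent lines and for the 10 with the largest difference between CRES-3 and fibroblasts, fibroblast comparisons giving the range over the pluripotent arrays. Other genes come from fixed lists, at most 3 a list with the smallest p, except the markers of cell types (such as PRRX1, COL1A1, PAX6, HAND1 and EOMES), which were chosen after their values were seen. The members and lists were chosen with earlier results of these data known. The letters A, B and C were not treated as pairs in the main fit. Correlations of the deviations of same-letter arrays ran from -0.41 to 0.44, with 20 of 63 over 0.1. Their median was 0.01, and that of other-letter pairs 0.001. Whether some same-letter arrays shared a batch cannot be told from these values. Alternatives were another filter, probe set rule, scaling or sample set, a replicate block, and each array left out. Gene neighbours came from the RefSeq annotation of the assembly T2T-MMU8v2.0, which held all 26 symbols; its coordinates are not given.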

Additional observations from a re-analysis of the deposited data

Results flagged for a closer look

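The difference between cloned and induced lines was unlike in the female lines (CRES-3 minus RiPS3) and the male lines (CRES-1 minus RiPS1) for 3 HOX genes, by limma's test of the interaction. The female minus male value was -1.504 for HOXA5, -1.206 for HOXC6 and 2.779 for HOXD1 on the log2 scale, with adjusted p = 0.00475, 0.0227 and 0.00638. Each of the 4 cells of this comparison is 1 line, so sex cannot be told apart from line. Groups of 3 arrays were too small to look for single deviating arrays.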

How the results depend on the processing

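Of 144 counts of called HOX genes under the other settings, 134 were within 1.5 times the reported count; of 129 counts with 1 array left out, 114 were. Of 505 values of single HOX genes, 462 kept their side of the threshold, 43 were no longer called and 0 were reversed. The count of reversals is limited, since a span of the F test cannot be negative and settings that left a gene untested were not counted. With every probe set fitted on its own, a gene was read from a called probe set where it had one. The 505 values do not include HOXD10 against the fibroblasts, where its probe sets disagreed in RiPS2. RiPS2 against ORMES23 (1 reported) had 0 calls with the stricter filter (log2 6) and with the mean of all probe sets, since HOXD13 then leaves the fit untested, and 0 with only the compared arrays fitted (difference 1.32, adjusted p = 0.234), and 2 with every probe set fitted on its own, which added HOXD10. RiPS2 against RiPS3 (2 reported) had 1 call with the stricter filter and the mean of all probe sets, for the same reason, and 1 with only the compared arrays. RiPS1 against ORMES23 (2 reported) had 1 with arrays quantile normalized again, and RiPS1 against the mean of RiPS2 and RiPS3 (1 reported) had 2 with every probe set on its own. The interaction (3 reported) had 5 with only the compared arrays. The causes of the other changes were not tested. With each array left out in turn, the counts ran from 0 to 1 for CRES-1 against ORMES23, 1 to 3 for CRES-1 against RiPS1, 2 to 3 for CRES-3 against CRES-1, 1 to 2 for RiPS1 against ORMES23, 0 to 1 for RiPS2 against ORMES23, 1 to 3 for RiPS2 against RiPS3, 2 to 4 for the interaction and 4 to 6 for the F test. With the letters as a replicate block, the F test called 5 HOX genes, without HOXA9 (adjusted p = 0.0527), and the interaction 4; the block left the other counts equal. The HOXD10 call of the F test was lost without RiPS2 A or RiPS2 C. Levels near log2 5 limit HOXA7, HOXA9, HOXB5 and HOXD13 in all or most comparisons and HOXA5, HOXA11, HOXB6 and HOXD4 in some lines, since lines averaging under 5 have no measured level and the fold is then a bound.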

Other observations

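Markers of other cell types were read in the same lines. Of 5 tested mesoderm genes, 1 to 3 rose in each pluripotent line against the fibroblasts and none fell. By line, 13.5% to 14.6% of all tested genes fell and 16.4% to 19.3% rose, so 1 risen of 5 is close to that share. EOMES averaged 7.59 in CRES-3 and 9.86 in ORMES23, against 4.88 in the fibroblasts. HAND1 was uneven between arrays of a line, at 5.57, 5.23 and 8.70 in RiPS2, 7.49, 7.13 and 4.74 in RiPS3 and 4.65, 6.86 and 6.34 in ORMES23. Neither of the 2 tested keratinocyte genes was called against the fibroblasts in any line. PECAM1, 1 of 3 tested endothelial genes, fell in all 6, as did 10.5% of all tested genes. The blood gene PTPRC averaged 3.52 to 4.01 in all 7 lines and was not in the fit.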
